A study of Caenorhabditis elegans with 16 samples.

Results

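The genes pmt-1, pmt-2 and sams-1 of Caenorhabditis elegans are described here. They make phosphocholine and the methyl donor that its synthesis uses. They were chosen by pmt-2, which was picked because its transcript was higher in fasted than in fed worms at 20°C in replicate libraries, with pmt-1 and sams-1 added as genes of the same route. All 3 genes stand among the 2666 genes that the deposited table for 20°C lists, and 0 of the 3 stand among the 1442 genes of the table for heat shock. Since the 20°C comparison chose the genes, their levels in it are given as a description with no test.

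Phosphocholine is the head group precursor of phosphatidylcholine, the most abundant phospholipid of most animal membranes. Worms can build it by methylating phosphoethanolamine, a route shared with plants, in which PMT-1 carries out the first methylation and PMT-2 the later ones. Each methylation spends S-adenosylmethionine, which SAMS-1, an S-adenosylmethionine synthetase of the methionine cycle, makes from methionine and ATP. A second route, from dietary choline through choline kinase, reaches the same phosphocholine. In worms with too little S-adenosylmethionine or phosphatidylcholine the lipogenic transcription factor SBP-1 is known to become more active.

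Poly-dT selected mRNA of whole wild-type (N2) worms was sequenced in 4 groups of 4 libraries. Fasted worms were kept without their OP50 bacteria for 24 h from mid-L4, the final larval stage before adulthood, and fed worms stayed on OP50. Fasted and fed worms were either held at 20°C (basal) or exposed to 35°C for 30 min (heat shock). The study's text says that the fasted worms were collected straight after the fast, while the sample labels give 24 h of recovery, and the files do not settle which applied. All groups share the N2 strain, and no mutant or transgene was used. No source used here says whether replicate libraries came from different cultures, so errors and p-values cover the spread between libraries, part of which may be technical.

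The libraries held 18062250 to 26398842 reads in fasted basal worms and 15859001 to 20345508 in fed basal worms, and 17421344 to 21770725 reads in fasted and 17071113 to 24718844 in fed heat-shocked worms. A table lists a gene only where the authors' own comparison of fasted with fed worms gave an unadjusted p under 0.05, which holds for 2666 of 14982 genes (17.8%) at 20°C and for 1442 of 15456 (9.33%) after heat shock. In a fit of all listed genes at 20°C, with edgeR's quasi-likelihood test and Benjamini-Hochberg adjustment over the 14982 genes, 288 genes (1.92%) passed an adjusted p of 0.05 with higher levels in fasted worms and 80 (0.534%) with lower levels. With the replicate number as a block 553 passed as higher and 133 as lower. After heat shock 0 genes passed in either direction (0%), while DESeq2 called 51 and limma on log2(FPKM + 1) called 1. With edgeR 2385 of the 2666 listed genes at 20°C and 1132 of the 1442 after heat shock had an unadjusted p below 0.05. Such a p, here and below, is no separate result, since listing already required one in the same libraries. Of the listed genes at 20°C 62.5% had a higher mean in fasted worms, and this share was 72.2% in the shortest and 47.9% in the longest of 10 groups of genes by length.

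pmt-2 (F54D11.1), the methyltransferase of the later steps, had 10623, 9493, 9709.85 and 9683 normalized counts in the fasted basal libraries, against 4603, 4336, 4109 and 4929 in the fed basal libraries. A normalized count is a read count divided by the size factor of its library. All 4 fasted libraries lay above all 4 fed ones, and the lowest fasted value was 1.93 times the highest fed value. Separation, here and for pmt-1, sams-1 and the pathway genes below, is not specific to these genes, since only genes that differed between these libraries were listed. Among the other listed basal genes of the pathways described below, only cth-2 and pod-2 had overlapping groups in normalized counts. How many of the 2666 listed genes had groups apart was not counted. The means of pmt-2 were 9877 ± 506 in fasted and 4494 ± 353 in fed worms (SD, n = 4 libraries each), a ratio of 2.198 and a log2 fold change of 1.14 (standard error 0.095). Its replicates were close together, with a coefficient of variation of 5.13% in fasted and 7.85% in fed worms. Among the 2666 listed genes its log2 fold change had the 52nd smallest standard error.

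pmt-1 (ZK622.3), the methyltransferase of the first step, had 5035, 4749, 4506 and 5732 normalized counts in the fasted basal libraries, against 1549, 1933, 2617 and 2168 in the fed basal libraries. The groups did not overlap, with the lowest fasted library at 1.72 times the highest fed library. Its means were 5005 ± 530.3 in fasted and 2067 ± 447 in fed worms (SD, n = 4 libraries each), a ratio of 2.42. The log2 fold change of 1.28 (standard error 0.16) lies within its error of that of pmt-2. The fed libraries varied more (21.6%) than the fasted ones (10.6%), with fed replicate 1 low and fed replicate 3 high.

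sams-1 (C49F5.1), which makes S-adenosylmethionine, had 8448, 8673, 5874 and 10443 normalized counts in the fasted basal libraries, against 3439.8, 3057, 2819 and 4822 in the fed basal libraries. The groups were apart here too, but by less, since fasted replicate 3 reached only 1.22 times the highest fed library, replicate 4. The means were 8359 ± 1882 in fasted and 3534 ± 896 in fed worms (SD, n = 4 libraries each), a ratio of 2.37 and a log2 fold change of 1.24 (standard error 0.20). Its coefficient of variation was 22.5% in fasted and 25.3% in fed worms, the widest of the 3 genes in both groups. sams-1 has close paralogs in the worm genome, sams-3, sams-4 and sams-5, none of them listed in either table, and whether reads were shared among the copies was not tested.

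**Figure D1:**
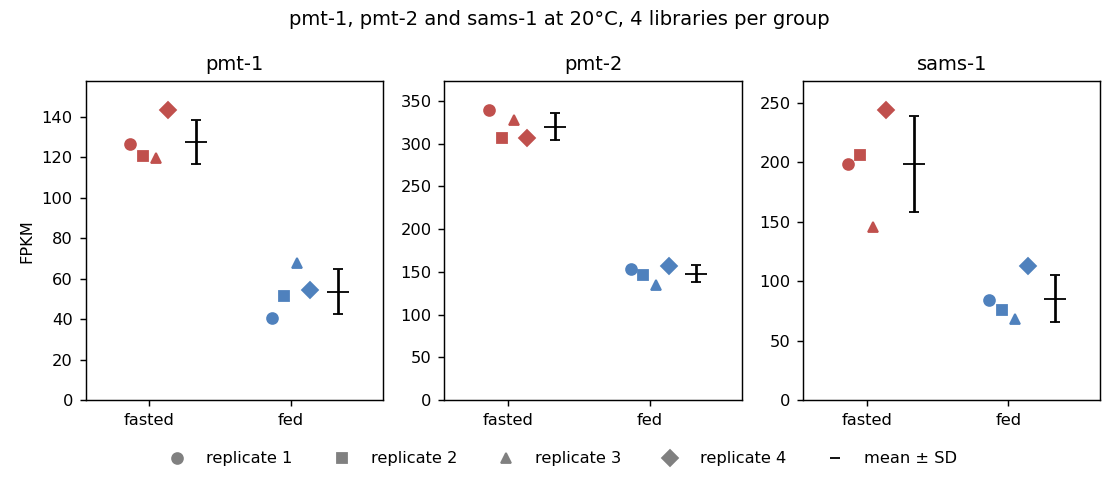
FPKM (vertical axis, from 0) of pmt-1, pmt-2 and sams-1 in the 4 fasted and the 4 fed basal libraries, with a marker shape for each replicate number and the mean ± SD beside the points. In each panel the fasted libraries all lie above the fed ones, closest for sams-1, where fasted replicate 3 is at 146 FPKM and fed replicate 4 at 113 FPKM.

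Compared as FPKM (fragments scaled by gene length and library reads), pmt-2 was the highest of the 3 genes in both groups. This order depends on the deposited gene lengths, 1577 bases for pmt-2, 2001 for pmt-1 and 2144 for sams-1, which are per gene and not per transcript. pmt-2 averaged 320.0 ± 16.1 FPKM in fasted and 148 ± 9.89 in fed worms (SD, n = 4 libraries each), which placed it 77th of the 2666 listed genes by mean FPKM. sams-1 followed with 198 ± 40.4 FPKM in fasted and 85.3 ± 19.7 in fed worms (SD, n = 4), at rank 128. pmt-1 was lowest, with 128 ± 10.9 FPKM in fasted and 53.5 ± 11.1 in fed worms (SD, n = 4), at rank 221. In FPKM the order of pmt-2 above sams-1 held in every library, in fasted worms with 306 to 339 FPKM against 146 to 244 FPKM and in fed worms with 135 to 157 against 68.03 to 113. In normalized counts, which are not scaled by length, sams-1 was above pmt-2 in fasted replicate 4 (10443 against 9683). sams-1 lay above pmt-1 in every library as well, closest in fed replicate 3 by 1.01 times. The ranges of sams-1 and pmt-1 were adjacent without overlapping, at 146 to 244 against 119.7 to 143 FPKM in fasted worms and 68.03 to 113 against 40.7 to 67.7 in fed worms. The lowest read count behind these values was 1557, for pmt-1 in fed replicate 1, so counting error was small beside the spread between libraries.

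The balance between the genes did not separate fasted from fed libraries. pmt-2 stood at 2.14 to 2.73 times the FPKM of pmt-1 in fasted worms (mean 2.52 ± 0.266, SD, n = 4) and at 1.99 to 3.77 times in fed worms (2.87 ± 0.726). pmt-2 stood at 1.26 to 2.25 times the FPKM of sams-1 in fasted worms (1.68 ± 0.422) and at 1.39 to 1.98 times in fed worms (1.78 ± 0.269). sams-1 over pmt-1 was 1.22 to 1.70 in fasted worms (1.55 ± 0.229) and 1.01 to 2.08 in fed worms (1.66 ± 0.518). For each of these ratios the groups overlapped, so no change in the balance of methyl donor synthetase to methyltransferase was visible at this number of libraries, which does not show that there was none.

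**Figure D2:**
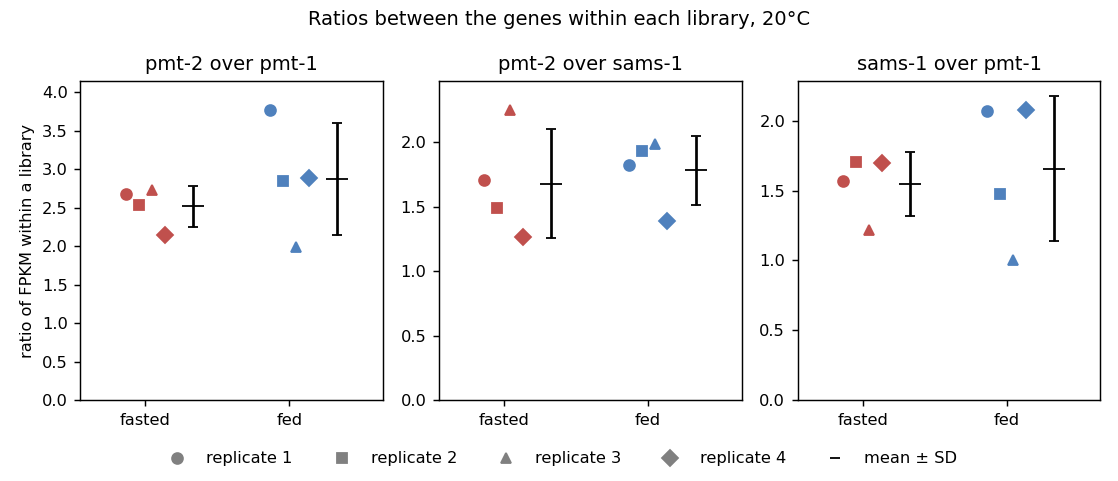
Ratio of the FPKM values of each pair of genes within a library (vertical axis, from 0), for the 4 fasted and the 4 fed basal libraries, with the mean ± SD beside the points. The groups overlap in every panel, and fed replicate 1 has the highest ratio of pmt-2 over pmt-1 (3.77) while fed replicate 3 has the lowest (1.99).

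Within a group some pairs of the 3 genes followed each other and others did not. In fed worms replicate 3 had the lowest pmt-2 and sams-1 values and the highest pmt-1 value, and replicate 4 had the highest pmt-2 and sams-1 values. In fasted worms replicate 4 had the highest and replicate 3 the lowest values of both pmt-1 and sams-1, while replicate 1 was highest in pmt-2. The deviations of log2 levels from the group means gave r = -0.29 between pmt-2 and pmt-1, r = 0.58 between pmt-2 and sams-1 and r = 0.17 between pmt-1 and sams-1 over the 8 basal libraries, which share their size factors and handling. Within groups of 4 libraries pmt-2 and sams-1 had r = 0.02 in fasted and 0.96 in fed worms, pmt-1 and sams-1 had 0.87 in fasted and -0.15 in fed worms, and pmt-2 and pmt-1 had 0.10 in fasted and -0.42 in fed worms. With so few libraries these values are a description. Over the levels themselves the correlations were 0.93, 0.93 and 0.88, which mostly repeat that all 3 genes were higher in fasted worms.

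Set against all listed genes, the differences of the 3 genes were above the middle of the table and well inside its range. The median log2 fold change was 0.57 over the 2666 listed genes and 0.84 over the 1667 with a higher mean in fasted worms. Of those 1667 genes 20.8% had a log2 fold change as high as that of pmt-1 or higher, 22.4% for sams-1 and 27.7% for pmt-2. Among the listed genes pmt-2 thus ranked higher in level than in the size of its difference. Its small standard error is no separate result, since pmt-2 was picked for a rise that replicated. By gene length pmt-2, pmt-1 and sams-1 fell in groups 7, 8 and 9 of the 10, where 59.9%, 55.6% and 47.2% of the listed genes had a higher mean in fasted worms, and the part of length in the result was not tested.

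**Figure D3:**
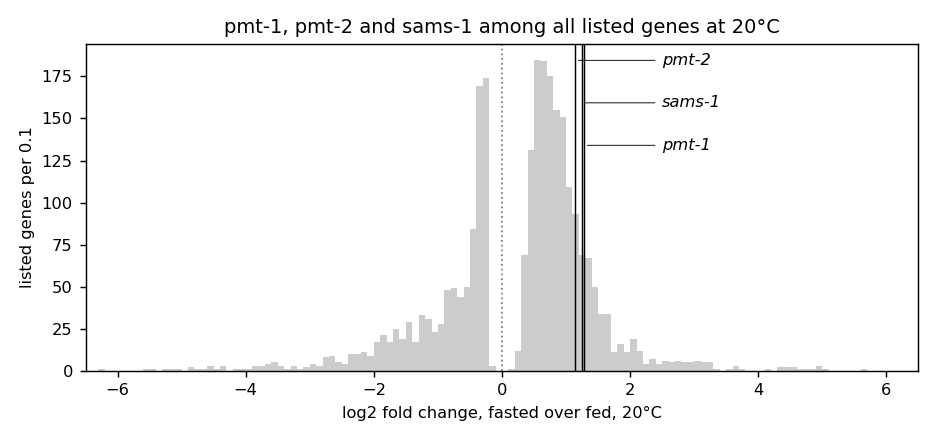
Number of listed genes (vertical axis) per 0.1 of log2 fold change, fasted over fed at 20°C (horizontal axis), over all 2666 listed genes, with vertical lines at pmt-2 (1.14), sams-1 (1.24) and pmt-1 (1.28). The gap around 0 follows from the table listing only genes with an unadjusted p under 0.05, and the 3 lines lie on the upper flank of the higher genes, whose median is 0.84.

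The genes lie on different chromosomes of WBcel235 and so share no locus. The files place pmt-2 on chromosome V at 4628580 to 4635266, on the plus strand, and Ensembl annotates 1 transcript of 6 exons with a coding sequence of 437 codons. pmt-1 is on chromosome II at 5278137 to 5280455 in the files, on the minus strand, with 7 coding transcripts of 460 to 484 codons. sams-1 is on chromosome X at 11965962 to 11968109, on the plus strand, with 3 transcripts that all code for 403 codons. The counts are per gene and do not separate the transcripts of pmt-1 or sams-1. None of the 3 genes overlaps another annotated gene, so reads of an overlapping gene do not enter their counts.

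Markers of several tissues were listed among the basal genes along with the 3 genes. Some had a higher and others a lower mean in fasted worms, but only markers with a higher mean passed the test. In these whole-worm samples fewer cells of a type and less RNA per cell cannot be told apart. Over all genes 17.8% were listed, 1.92% passed as higher and 0.534% as lower. Of the listed genes 62.5% had a higher mean in fasted worms. Of the 9 intestinal markers matched, 5 were listed, of which act-5, the actin of intestinal microvilli, and ifb-2, a filament protein under them, passed the test as higher (log2 fold change 1.03 and 0.87), while vha-6 (0.39), cpr-1 (-0.75) and mtl-2 (-1.30) did not pass. The summed level of these 5 was 15483 to 16676 normalized counts in fasted and 9657 to 13034 in fed worms. Of 8 body wall muscle markers 6 were listed, all with a higher mean, of which tnt-2 (log2 fold change 0.94) and mlc-1 (1.098) passed, with a summed level of 40771 to 60243 in fasted and 22889.9 to 40942 in fed worms. Of 8 sperm markers 2 were listed, fog-3, which passed (log2 fold change 2.99), and spe-11, which did not, with a summed level of 40.3 to 72.2 in fasted and 4.98 to 7.13 in fed worms. Of 12 germline markers cpg-2 and egg-1 were listed, with a summed level of 53100 to 75232 in fasted and 71428 to 89502 in fed worms, and 0 of the 2 passed (2 at an unadjusted p under 0.05). Of 8 hypodermal markers 3 were listed, elt-3 passing as higher (1.03) and dpy-7 (-1.20) and dpy-10 (-0.77) not passing, summed at 389.6 to 491 in fasted and 223 to 653 in fed worms, and of 8 neuronal markers 3, with 0 passing (3 at an unadjusted p under 0.05), summed at 1711 to 2661 in fasted and 1143 to 1820.0 in fed worms. The summed levels of the muscle, germline, hypodermal and neuronal markers overlapped between fasted and fed libraries. The defining intestinal markers elt-2 and ges-1 were not listed, and the part of tissue content in the levels of pmt-1, pmt-2 and sams-1 was not tested.

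The choline kinase gene ckb-2 and the phosphatidylcholine synthesis genes pcyt-1 and cept-1 rose in fasted worms at 20°C. Of 15 other genes of phosphocholine and phospholipid synthesis 5 were listed, 3 passed as higher and 0 as lower, where 1.92% of all genes passed as higher. Their median log2 fold change was 0.70, against 0.57 over all listed genes. ckb-2, a choline kinase of the dietary route, had 818, 521, 943 and 619 normalized counts in fasted worms, against 215, 389.8, 221 and 288 in fed worms. It rose by a log2 fold change of 1.38 (edgeR adjusted p = 0.019, standard error 0.24), more than any other listed gene of this list, and the groups did not overlap. pcyt-1, whose enzyme activates phosphocholine with CTP, had 1065, 1105, 879 and 1138 normalized counts in fasted worms, against 657, 662, 585 and 682 in fed worms. It rose by 0.70 (edgeR adjusted p = 0.020, standard error 0.12). cept-1, a phosphotransferase that joins the activated head group to diacylglycerol, had 1122, 1068, 770.4 and 1272 normalized counts in fasted worms, against 525, 431, 559.7 and 759 in fed worms. It rose by 0.89 (edgeR adjusted p = 0.046, standard error 0.20), although fasted replicate 3 was only 1.01 times fed replicate 4.

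The listed genes of the phosphatidylserine branch did not pass with edgeR, while pssy-1 did with DESeq2 (adjusted p = 0.029). pssy-1, a phosphatidylserine synthase, had a log2 fold change of 0.52 (edgeR adjusted p = 0.13, standard error 0.15), and psd-1, the phosphatidylserine decarboxylase, 0.20 (edgeR adjusted p = 0.42, standard error 0.10), a value that turned to -0.016 with TMM and -0.20 with DESeq2 size factors over the listed genes. The calls of this list depended on the scaling and on single libraries. With TMM, which shifts the median of all listed genes by -0.21, 1 gene was called, ckb-2, and with DESeq2 size factors over the listed genes, which shift it by -0.39, 0 were called (2 at an unadjusted p under 0.05, and 4 with the DESeq2 test on the main scaling). Under the larger shift ckb-2 had 0.96 (edgeR adjusted p = 0.0501), cept-1 0.52 (0.15) and pcyt-1 0.30 (0.80). The number called was 0 without fasted replicate 1, fed replicate 1 or fed replicate 3, 1 without fasted replicate 4 or fed replicate 2, 2 without fasted replicate 2 and 3 without fasted replicate 3 or fed replicate 4, with the highest adjusted p over the left-out libraries at 0.065 for ckb-2, 0.073 for pcyt-1 and 0.15 for cept-1 from edgeR. All 5 genes overlap another annotated gene, pcyt-1, cept-1, pssy-1 and psd-1 on the other strand and ckb-2 on the same strand. Since no source states that strand was kept in counting, reads of the partners cannot be told apart there. For ckb-2 strand would not separate them in any case.

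The other listed genes of the methionine cycle had smaller log2 fold changes than sams-1. Of 16 other genes of the methionine cycle, the folate cycle and transsulfuration 4 were listed, 1 passed as higher and 0 as lower, where 1.92% of all genes passed as higher and 0.534% as lower, with a median log2 fold change of 0.40, below the 0.57 of all listed genes. ahcy-1, the hydrolase that clears the S-adenosylhomocysteine left by each methylation, had 32186, 31895.5, 29670.3 and 33137 normalized counts in fasted worms, against 22588, 23582, 19408 and 22403 in fed worms. The groups were apart, and the means were 31722 ± 1467 in fasted and 21995 ± 1801 in fed worms (SD, n = 4 libraries each). It rose by a log2 fold change of 0.53 (edgeR adjusted p = 0.021, standard error 0.095), and did not pass without fasted replicate 1 or 4 or fed replicate 1, 2 or 3, where the edgeR adjusted p reached 0.075. It also did not pass with TMM (0.31, edgeR adjusted p = 0.38) or with DESeq2 size factors over the listed genes (0.12, edgeR adjusted p = 1). ahcy-1 was the most abundant of the pathway genes described, at 1002 ± 20.5 FPKM in fasted and 707 ± 65.1 in fed worms (SD, n = 4).

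The other listed genes of this list did not pass with edgeR, while mtrr-1 (adjusted p = 0.0099) and mel-32 (0.0038) passed with DESeq2. mtrr-1, the reductase that keeps methionine synthase active, averaged 3855 ± 54.8 normalized counts in fasted and 2925 ± 337 in fed worms (SD, n = 4), with a log2 fold change of 0.40 (edgeR adjusted p = 0.080, standard error 0.10). mel-32, the serine hydroxymethyltransferase that charges folate with methyl carbon, averaged 13808 ± 784 in fasted and 10497 ± 875 in fed worms (SD, n = 4), with a log2 fold change of 0.40 (edgeR adjusted p = 0.064, standard error 0.097). The groups of both genes were apart. cth-2, a cystathionine gamma-lyase of transsulfuration, had a log2 fold change of 0.34 (edgeR adjusted p = 0.29, standard error 0.15) with overlapping groups, and the gene overlaps another on the other strand. With DESeq2 size factors over the listed genes these values were -0.0041 for mtrr-1, -0.011 for mel-32 and -0.053 for cth-2. The synthetases sams-3, sams-4 and sams-5, the methionine synthase metr-1 and the cystathionine beta-synthases cbs-1 and cbs-2 were not listed, so their levels are not known here.

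**Figure D4:**
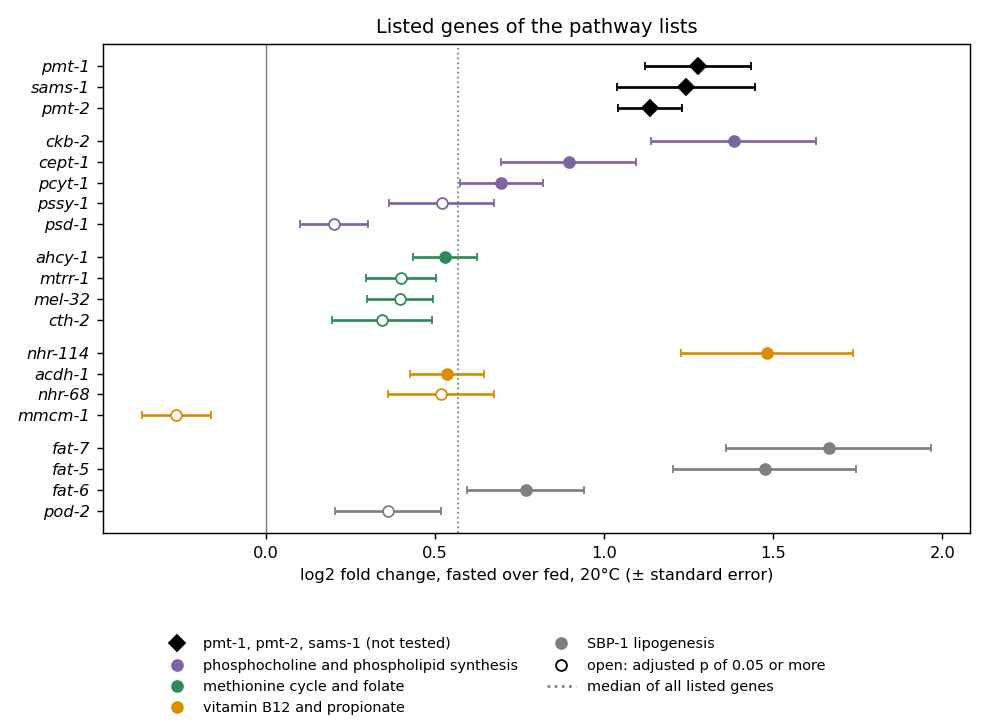
Log2 fold change, fasted over fed at 20°C (horizontal axis), with its standard error as a bar, for pmt-1, pmt-2 and sams-1 (diamonds, not tested) and the listed genes of 4 pathway lists (circles, filled where the edgeR adjusted p was under 0.05). The 3 diamonds lie between 1.14 and 1.28, ckb-2 (1.38), fat-5 (1.47), nhr-114 (1.48) and fat-7 (1.66) lie above them, and the genes of the methionine cycle list lie between 0.34 and 0.53 (3 of these 4 turn just below 0 with DESeq2 size factors over the listed genes, as do psd-1 and pod-2).

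Vitamin B12 is the cofactor of methionine synthase and of propionate breakdown. Of 12 genes of this list 4 were listed at 20°C, 2 passed as higher and 0 as lower, where 1.92% of all genes passed as higher and 0.534% as lower, with a median log2 fold change of 0.53, against 0.57 over all listed genes. nhr-114, a nuclear hormone receptor known to raise methionine cycle genes in worms low in S-adenosylmethionine, had 4402, 4012, 3908 and 3933 normalized counts in fasted worms, against 1678, 1198, 781 and 2169 in fed worms. All fasted libraries were above all fed ones, and the fed libraries were spread widely. It rose by a log2 fold change of 1.48 (edgeR adjusted p = 0.017, standard error 0.25), which was lost without fasted replicate 1 or fed replicate 2, where the edgeR adjusted p reached 0.056. acdh-1, an acyl-CoA dehydrogenase of the propionate shunt, averaged 18511 ± 1803 in fasted and 12769 ± 1296 in fed worms (SD, n = 4).

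acdh-1 rose by a log2 fold change of 0.54 (edgeR adjusted p = 0.036, standard error 0.11) and did not pass without fasted replicate 1, 3 or 4 or fed replicate 1, 2 or 3, where the edgeR adjusted p reached 0.11. It did not pass with TMM (0.33, edgeR adjusted p = 0.17) or with DESeq2 size factors over the listed genes (0.14, edgeR adjusted p = 1) either. nhr-68, a receptor that acts on the propionate shunt, had a log2 fold change of 0.52 (edgeR adjusted p = 0.13, standard error 0.16) and passed with DESeq2 (adjusted p = 0.033). mmcm-1, the B12-dependent methylmalonyl-CoA mutase, had a log2 fold change of -0.27 (edgeR adjusted p = 0.22, standard error 0.10), the lone listed gene of the 4 lists with a lower mean in fasted worms at 20°C on this scaling. With DESeq2 size factors over the listed genes it passed as lower (-0.66, edgeR adjusted p = 0.047). nhr-114 overlaps a gene on the other strand, and acdh-1, nhr-68 and mmcm-1 overlap none.

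SBP-1, the worm's sterol regulatory element binding protein, acts on fatty acid synthesis and desaturation. Of 8 genes of this list, 7 of them matched to the reference, 4 were listed at 20°C and 3 passed as higher, where 1.92% of all genes did, all of them stearoyl- or palmitoyl-CoA desaturases, with a median log2 fold change of 1.12 over the 4. fat-7 had 6018, 3706, 2171 and 2312 normalized counts in fasted worms, against 1330.3, 921, 972 and 1261 in fed worms. Its groups were apart, with fasted replicate 1 far above the others, and it rose by a log2 fold change of 1.66 (edgeR adjusted p = 0.021, standard error 0.30). fat-5 had 1677, 1000.2, 1105 and 938 normalized counts in fasted worms, against 435, 231, 492 and 540.2 in fed worms, and rose by 1.47 (edgeR adjusted p = 0.022, standard error 0.27). fat-6 rose by 0.77 (edgeR adjusted p = 0.047, standard error 0.17). fat-6 and fat-7 are close paralogs, and whether reads were shared between them was not tested, so their separate values are uncertain. fat-5 overlaps 2 genes on the other strand and pod-2 overlaps 1. With the strand setting not stated, reads of those genes cannot be told apart there.

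The lipogenic calls were also sensitive to single libraries, and that of fat-6 to other settings as well. fat-5 was lost without fasted replicate 1 or 3 or fed replicate 1 (adjusted p up to 0.070), fat-7 without fed replicate 1, 2 or 3 (up to 0.066) and fat-6 without any library but fed replicate 3 (up to 0.14, all from edgeR). fat-6 was also lost with limma on log2(FPKM + 1) (adjusted p = 0.053) and log2(FPKM + 0.1) (0.052), with a mean count of at least 10 (edgeR adjusted p = 0.051), with TMM (0.56, edgeR adjusted p = 0.11) and with DESeq2 size factors over the listed genes (0.39, edgeR adjusted p = 0.58). pod-2, the acetyl-CoA carboxylase, had a log2 fold change of 0.36 (edgeR adjusted p = 0.29, standard error 0.16) with overlapping groups, and -0.026 with DESeq2 size factors over the listed genes. Without fasted replicate 3 pod-2 passed as higher (0.50, edgeR adjusted p = 0.036). sbp-1 itself, its cofactor mdt-15 and the fatty acid synthase fasn-1 were not listed.

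Many listed genes followed the level of pmt-2 across the 8 basal libraries, since most of its variation is the difference between fasted and fed worms. Over 1864 listed genes with a mean of at least 50 normalized counts, 236 had r above 0.9 with pmt-2 on the log2 scale. The 5 most alike were warf-1 (r = 0.99), try-12 (0.99), Y67H2A.9 (0.98), pes-9 (0.98) and F17A9.4 (0.98), with log2 fold changes of 5.10, 1.16, 1.37, 0.51 and 0.72. warf-1, an Arf family GTPase gene, averaged 509 ± 88.4 normalized counts in fasted and 14.8 ± 2.497 in fed worms (SD, n = 4), so likeness in order and spacing of libraries did not mean a similar size of difference. Of the pathway genes ahcy-1 ranked 40th (0.96), pcyt-1 56th (0.95) and nhr-114 83rd (0.94), ahead of sams-1 at 128 and pmt-1 at 136 (0.93 each). In deviations from the group means nhr-114 still had r = 0.89 with pmt-2, against 0.45 for ahcy-1 and 0.37 for pcyt-1, all over 8 libraries that share their size factors.

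After heat shock no value can be given for pmt-1, pmt-2 or sams-1, since the table for 35°C does not list them. Their difference between fasted and fed worms there had an unadjusted p of 0.05 or more in the authors' comparison or was left untested, which does not show that the levels were equal. Of the 4 pathway lists only the vitamin B12 and propionate list had genes in that table, 3 of its 12. hphd-1, a transhydrogenase of the propionate shunt, averaged 5378 ± 234 normalized counts in fasted and 4490.3 ± 805 in fed heat-shocked worms (SD, n = 4), with a log2 fold change of 0.26 (edgeR adjusted p = 0.66, standard error 0.11). alh-8, the last dehydrogenase of the shunt, had a log2 fold change of 0.22 (edgeR adjusted p = 0.63, standard error 0.090), and mce-1, the methylmalonyl-CoA epimerase, -0.24 (edgeR adjusted p = 0.64, standard error 0.11). The groups overlapped in all 3, and 0 of the 3 passed, with 3 at an unadjusted p under 0.05 and 0 called by DESeq2. The alh-8 gene overlaps another on the other strand. Of the tissue markers dpy-7 and sqt-3 of the hypodermis, with a lower mean in fasted worms, and the neuronal egl-3 and egl-21, with a higher mean, were listed after heat shock, and 0 of the 4 passed with edgeR (4 at an unadjusted p under 0.05). Over all genes 9.33% were listed after heat shock and 0 passed. Whether fasting acted differently on the phosphocholine genes at the 2 temperatures was not tested, since they have values at 20°C alone.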

How the data were processed

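RNA of whole N2 worms was sequenced from 4 groups of 4 libraries. The authors made the raw counts with HISAT2 2.0.5 on WBcel235 and featureCounts 1.5.0-p3, and no source states the strand setting. The deposited signal values are normalized counts, divided by the authors' size factor for each library, and the authors computed FPKM from counts, gene length and library reads. The authors' DESeq2 log2 fold changes and p-values were not used as results. The p-values served only to find that listed genes had p under 0.05 and over how many genes the authors adjusted. Each of the 2 tables was normalized separately and was tested on its own.

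Library reads were recovered from count, FPKM and length. Raw counts of all listed genes were fitted with edgeR 4.0.16 (quasi-likelihood test, R 4.3.3), with the authors' size factors, for fasted against fed libraries. The spread between libraries was thus estimated from listed genes alone, which had been selected on these same libraries. This may make the p-values too small, and its size was not tested. Benjamini-Hochberg adjustment ran over 14982 or 15456 genes, each unlisted gene counting as a p of 1. The fits were tested on simulated data. Summaries were made in Python 3.11.15, and annotation came from Ensembl release 115.

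Named are pmt-1, pmt-2 and sams-1, every listed gene of the 4 pathway lists and the 5 genes most correlated with pmt-2. The genes and lists were chosen with earlier results of these data known. The other settings included DESeq2 1.42.0, limma 3.58.1 (log2 FPKM with a pseudocount of 1 or 0.1), scaling by TMM, by size factors that DESeq2 computes from listed genes or by library reads alone, a mean count of at least 10, adjustment over the listed genes, the replicate number as a block, and each library left out. Same-numbered basal libraries deviated together (r = 0.17, 0.21, 0.41 and 0.13 over 1865 genes, each above the bound of 0.1). Other pairings passed the bound too, with fasted replicate 2 at 0.43 with fed replicate 1 and fasted replicate 3 at 0.11 with fed replicate 4. After heat shock the same-numbered values were 0.23, 0.068, 0.18 and 0.47 over 992 genes. The main fit took no pairs at either temperature, and its p-values ignore any pairing. The replicate number as a block was run only as an alternative.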

Additional observations from a re-analysis of the deposited data

Results flagged for a closer look

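mtrr-1, the methionine synthase reductase gene, had a library apart from the rest in fasted basal worms. Replicate 2 had 3773 normalized counts, against 3874 to 3890.3 in the other 3 fasted libraries, and this gap was 0.857 of the whole range of the group. The range is narrow beside that of the fed libraries (2510 to 3314). It was the lone case among 46 groups of 4 libraries examined, where chance gives about 1 in 20.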

How the results depend on the processing

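The log2 fold changes of pmt-1, pmt-2 and sams-1 at 20°C were above 0 in all 48 values under alternatives. These values refit the libraries that chose the genes, so their sign is a description and no support. Of the 48 values 44 differed from the main value by less than the larger within-group SD of the gene's log2 normalized counts. The exceptions were pmt-2 with TMM (0.92) and, with DESeq2 size factors over the listed genes, pmt-2 (0.74), pmt-1 (0.89) and sams-1 (0.86). These scalings centre on the listed genes, of which 62.5% had a higher mean in fasted worms, and shift the median by -0.21 and -0.39. With a library left out pmt-2 ran from 1.095 to 1.18, pmt-1 from 1.16 to 1.41 and sams-1 from 1.117 to 1.43. With the replicate number as a block they were 1.14, 1.30 and 1.24. The number of genes called at 20°C was 368 in the main fit, 874 with DESeq2, 746 with DESeq2 size factors over the listed genes, 686 with the replicate block, 2179 when adjusted over the listed genes alone, and 107 to 471 with a library left out. The share called as higher was 78.3% in the main fit, 48.9% with TMM and 19.2% with DESeq2 size factors over the listed genes. After heat shock 0 genes were called in the main fit, 0 with the replicate block and 0 with any library left out, against 51 with DESeq2, 1 and 2 with limma on log2(FPKM + 1) and log2(FPKM + 0.1), and 470 when adjusted over the listed genes alone. Adjusting over fewer genes raises the count by construction, and for the other alternatives the cause was not tested. Of 272 values of the 17 pathway genes at 20°C 206 kept their side of the threshold, 54 lost and 6 gained a call, and 6 changed sign, namely psd-1 with TMM (-0.016) and, with DESeq2 size factors over the listed genes, psd-1 (-0.20), mtrr-1 (-0.0041), mel-32 (-0.011), cth-2 (-0.053) and pod-2 (-0.026). The block changed the call of no pathway gene. The planned values after heat shock for pmt-1, pmt-2 and sams-1 were not run, since the table does not list them, and genes outside a table could not be tested at any depth.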
